A study of Mus musculus with 4 samples.

Results

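The genes described here are 60 members of 9 families of transcription factors: forkhead (16 genes), SOX (9), GATA (3), KLF (3), T-box (2), STAT (4), SMAD (6), IRF (8) and ETS (9). They were chosen by gene name alone, and are 60 of the 10925 gene names that carried a listed transcription start site (TSS). Of these names 57 were protein-coding genes in RefSeq, Sox5os3 and Sox5os4 were long non-coding RNAs, and Foxl3 found no match there. The study profiled acetylation of histone H3 at lysine 27 (H3K27ac) by CUT&Tag in mouse liver. The PHx group was C57/BL6J mice 12 h after removal of 70% of the liver (partial hepatectomy), with 2 libraries. The sham group was C57/BL6J mice with a sham operation, also with 2 libraries. The labels give the sham libraries no hour and the design text places them at 0 h, so time after surgery and hepatectomy cannot be told apart.

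CUT&Tag uses an antibody to direct a transposase to a chromatin mark, and H3K27ac marks the promoters and enhancers of active genes. STAT and SMAD proteins wait in the cytoplasm in many cells and enter the nucleus once a cytokine or a TGF-beta family ligand has signalled. Some IRF proteins, though not all, do so after a pathogen sensor has signalled, while ETS factors such as Elk4 are switched on by ERK kinases. Forkhead, SOX, GATA, KLF and T-box factors are better known for building and keeping cell identity, although FOXO proteins are held out of the nucleus by insulin signalling. In liver, Foxa1 and Foxa3 open chromatin for hepatocyte genes, Gata4 and Klf2 are known from sinusoidal endothelium, and STAT factors carry cytokine signals early in regeneration.

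Coordinates are those of GRCm39. Each group came as 1 merged list of regions, with no signal, score or read count, so depth is unknown and each width below is a single value per group with no replicate error and no test. The labels do not tie the replicates to animals, and what separates them may be technical. The PHx list held 10170 regions with a median width of 14551 bp covering 197 Mb, and the sham list held 11602 regions with a median of 8153 bp covering 122 Mb. The PHx list thus had the wider regions by median, and each member is read against all genes. In bulk liver, fewer cells carrying the mark and less mark per cell cannot be told apart. Of 8 hepatocyte marker genes sought, 6 had a listed TSS. Regions lay at the TSS of 5 of these 6 in both groups, Alb and Hnf4a among them, where 59.1% of all genes had them. At Cps1 a region lay at the TSS in PHx liver only. A TSS is listed only for a gene that some region names, so these counts cannot serve as a check of the tissue.

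A member counted as marked in PHx or sham liver if its most upstream listed TSS, widened by 1 kb to either side, met a region of that group. Of the 60 members 46 were marked in both groups, or 76.7%, against 59.1% of all genes. In PHx liver only, 7 members were marked (11.7%), against 17.8% of all genes and 15.4% of the 7090 protein-coding ones. In sham liver only, 3 members were marked (5.0%), against 8.19% of all genes and 9.79% of protein-coding ones. The remaining 4, Ets1, Etv4, Klf12 and Sox5os3, were marked in neither group, although regions away from that TSS named them. Among the 402 other genes that the authors' deposited table assigns to a transcription factor family, 10.4% were marked in PHx liver only, 11.4% in sham liver only and 70.1% in both.

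**Figure D1:**
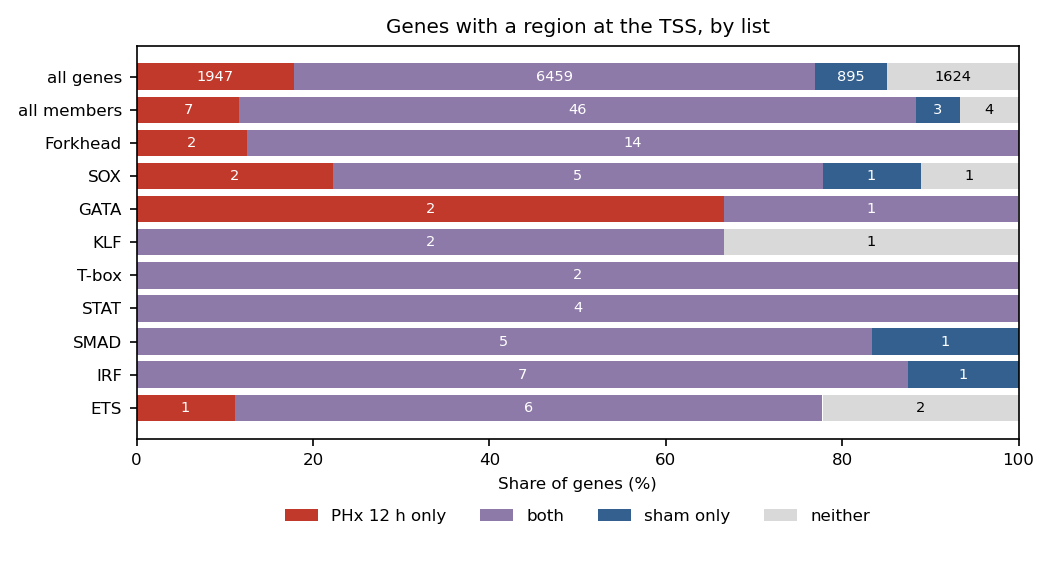
Share of genes (%) with a region at the TSS in PHx 12 h only, in both groups, in sham only and in neither, for all 10925 genes, the 60 members and each family; numbers in the bars are genes. All 4 STAT genes were marked in both groups, while 2 of 3 GATA genes were marked in PHx liver only.

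Over the 46 members marked in both groups, the region at the TSS had a median width of 22027 bp in PHx liver and 11309 bp in sham liver. The median ratio of PHx to sham width was 1.56 (quartiles 1.11 and 2.94, range 0.614 to 5.84), against 1.74 over the 6459 genes marked in both (quartiles 1.24 and 2.81). The region was wider in PHx liver at 41 members and narrower at 5, and 8.55% of all such genes had a narrower one. It was at least 2 times as wide at 18 of the 46 members, where 41.3% of all genes marked in both reached that ratio. Members were thus spread about as widely as genes in general, with a median slightly below theirs.

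Many PHx regions joined regions that were separate in sham liver. At 18 of the 46 members, or 39.1%, the PHx region overlapped more than 1 sham region, as it did at 32.0% of all genes marked in both. Sham regions already covered a median of 78.9% of the PHx region at the members, against 70.0% over all genes. Set against the summed width of every sham region it overlapped, the PHx region had a median ratio of 1.25 at members and 1.39 over all genes. The families differed in these counts, and no test of that difference was possible. Among the 22 marked STAT, SMAD, IRF and ETS genes, 13 PHx regions joined several sham regions, and the median ratio was 2.35 at the TSS region but 1.21 against the summed sham regions. Among the 24 marked forkhead, SOX, GATA, KLF and T-box genes only 5 joined, with medians of 1.45 and 1.39.

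**Figure D2:**
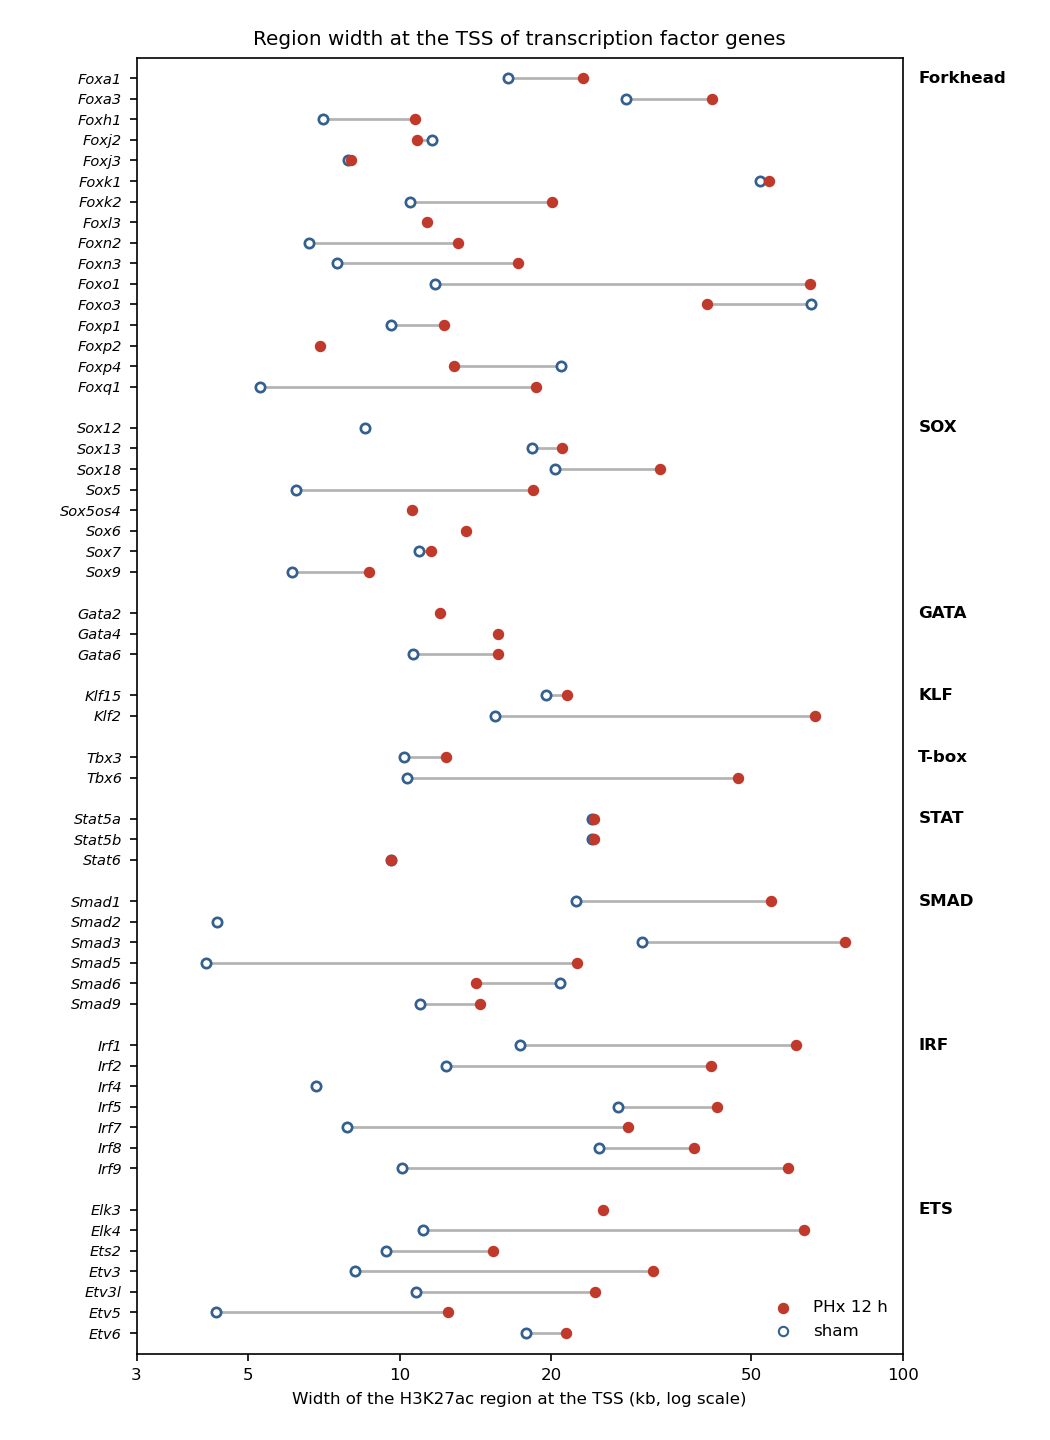
Width (kb, log axis) of the H3K27ac region at the TSS of marked members, by family, with filled points for PHx 12 h and open points for sham; a lone point is a member marked in 1 group only. The STAT points lie on top of each other, while those of Irf9, Elk4, Foxo1 and Smad5 lie over 5 times apart.

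**Figure D3:**
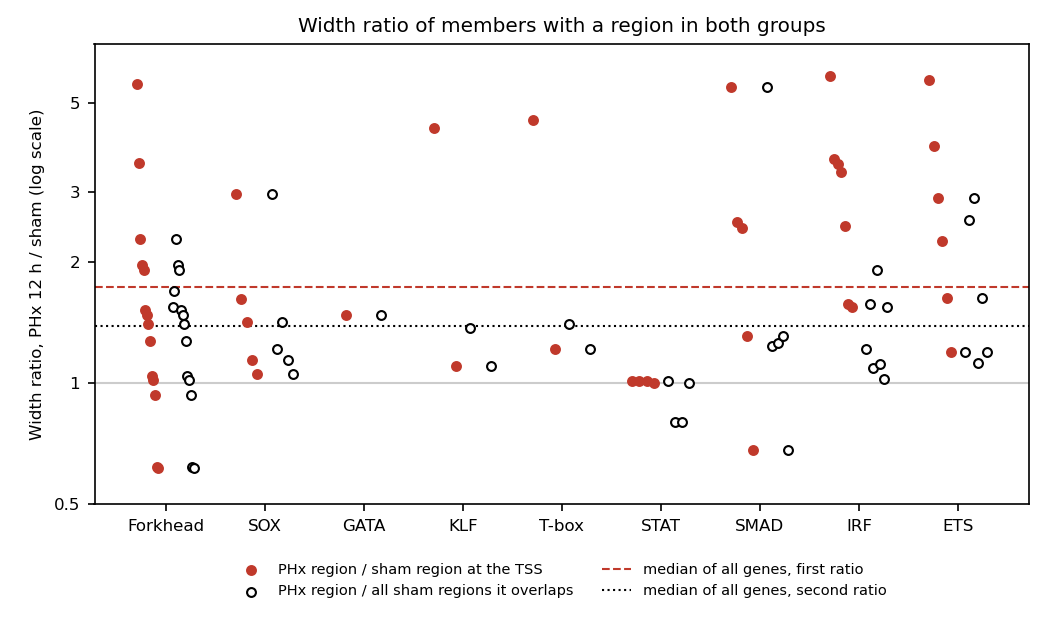
Ratio of PHx 12 h to sham width (log axis) for each of the 46 members marked in both groups, as the region at the TSS (filled) and against all sham regions the PHx region overlaps (open); lines give the medians over all genes, 1.74 and 1.39. IRF ratios run from 1.55 to 5.84 in the first form and from 1.02 to 1.91 in the second.

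Interferon regulatory factors drive interferon and immune genes, and at 6 of the 7 marked in both groups the PHx region joined several sham regions. Irf1, an interferon-gamma target that limits cell growth, had a 61232 bp region (chr11:53643878-53705109) in PHx liver and a 17364 bp region in sham liver, a ratio of 3.53. In sham liver 2 further regions of 9520 bp and 29259 bp overlapped that PHx region, the larger only 41 bp from the TSS region, so that sham regions already covered 91.3% of it and the ratio to their sum was 1.09. The Irf1 locus was thus covered almost from end to end in both groups, in 1 piece in PHx liver and in 3 pieces in sham liver. Irf9, the DNA-binding part of the complex that answers type I interferon, had the highest ratio of all members, 59145 bp (chr14:55791272-55850416) in PHx liver against 10121 bp in sham liver (5.84). Its PHx region ran 50170 bp upstream, over the start of Dcaf11, and took in a 38421 bp sham region, which left a ratio of 1.22 to the sum.

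Irf7, which amplifies type I interferon in response to virus, had 28461 bp in PHx liver against 7863 bp in sham liver (3.62, and 1.57 against the sum). Irf2, which can oppose Irf1 at shared sites, had 41516 bp in PHx liver against 12383 bp in sham liver (3.35, and 1.91 against the sum). Irf2 also had 45895 bp covered within 25 kb to each side of the TSS in PHx liver, against 22201 bp in sham liver, so coverage differed there as well as joining.

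Irf5 and Irf8, both known from macrophages and B cells, had 42755 bp and 38497 bp in PHx liver and 27090 bp and 24845 bp in sham liver. Irf5 reached 1.58 at the TSS region and 1.02 against the sum, as the PHx region joined 2 sham regions that lay 226 bp apart. The PHx region of Irf8 joined none, and its ratio was 1.55 in both forms. Irf4, a lymphocyte factor, was marked in sham liver only, with a region of 6810 bp (chr13:30931304-30938113), and no PHx region lay within 218780 bp of its TSS.

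All 4 STAT genes were marked in both groups, with a median ratio of 1.01. Stat5a and Stat5b, which relay growth hormone in hepatocytes and start from neighbouring TSSs on opposite strands, shared 1 region per group, 24377 bp (chr11:100731237-100755613) in PHx liver and 24084 bp in sham liver. Stat6, which answers interleukin-4, had 9614 bp in PHx liver and 9630 bp in sham liver. None of these widths differed by as much as the median gene, and each region therefore stood lower in the PHx list than in the sham list. Stat6 was at the 21.4th percentile of widths in PHx liver and at the 61.5th in sham liver. Stat5a was at the 77.4th in PHx liver and the 94.8th in sham liver.

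Near-equal width did not mean the same span. At Stat5a and Stat5b the PHx region was shifted so that it joined a 6420 bp sham region within Stat5b, and it was shorter than the 2 sham regions together (ratio 0.799). Within 25 kb of the TSS, 3 of the 4 STAT genes had less covered length in PHx liver, for example 35125 bp at Stat5b against 41157 bp in sham liver. These were Stat5a, Stat5b and Stat6, and the windows of Stat5a and Stat5b are largely the same stretch, so the 3 are not separate loci. Over all members 49 of 60 had more covered length there in PHx liver and 10 had less, as 80.5% of all genes had more. Stat3, the main carrier of the interleukin-6 signal, was named by no region analysed here and is not described.

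SMAD proteins carry TGF-beta and BMP signals, and 5 of the 6 genes were marked in both groups. Smad3, which carries TGF-beta and activin signals, had the widest member region of PHx liver, 76573 bp (chr9:63600289-63676861), against 30282 bp in sham liver (2.53). It joined 3 sham regions, and the ratio to their sum was 1.24. Smad1, a BMP carrier, had 54648 bp in PHx liver and 22411 bp in sham liver (2.44, and 1.26 against the sum). Both were thus wide in sham liver too, in pieces.

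Smad5, another BMP carrier, differed from them, with 22517 bp (chr13:56838252-56860768) in PHx liver against 4125 bp in sham liver (5.46). It overlapped that 1 sham region only, so the ratio to the sum was also 5.46, the highest of the 46 members, and sham regions covered 18.3% of the PHx region. Within 25 kb of its TSS 31097 bp were covered in PHx liver and 4125 bp in sham liver. The difference at Smad5 was thus one of covered length and not of joining.

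Smad6, an inhibitor of BMP signalling known from endothelium, was narrower in PHx liver, 14180 bp against 20786 bp in sham liver (0.682). Its sham region overlapped 2 PHx regions, and its covered length within 25 kb was nearly level, 36346 bp in PHx liver and 35621 bp in sham liver (ratio 1.02). Smad9, a BMP carrier, had 14437 bp in PHx liver and 10980 bp in sham liver (1.31). Smad2, the other carrier of TGF-beta signals, was marked in sham liver only, with a narrow region of 4344 bp (chr18:76372771-76377114) at the 7.10th percentile of sham widths. The nearest PHx region lay 173237 bp from the Smad2 TSS.

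ETS factors bind a purine-rich core and include targets of ERK kinases. Elk4, a partner of serum response factor at immediate early genes, had 63485 bp (chr1:131880455-131943939) in PHx liver and 11114 bp in sham liver (5.71). The PHx region took in 4 sham regions and extended 50499 bp farther upstream, past the start of Slc45a3, and its ratio to the summed sham regions was 1.20. Etv3, a repressor of growth genes in macrophages, had 31863 bp in PHx liver and 8168 bp in sham liver (3.90), and kept a ratio of 2.56 against the sum, with sham regions covering 39.1% of the PHx region. Etv5, a target of FGF signalling, had 12446 bp in PHx liver and 4307 bp in sham liver (2.89) with no joining.

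Etv3l, the neighbour of Etv3, had 24439 bp in PHx liver and 10785 bp in sham liver (2.27, and 1.12 against the sum). Ets2, an ERK target, had 15321 bp in PHx liver and 9375 bp in sham liver (1.63). Etv6, a repressor needed by blood stem cells, had 21369 bp in PHx liver and 17821 bp in sham liver (1.20), the lowest ratio of the family.

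Elk3, an ERK-controlled repressor known from endothelium, was marked in PHx liver only, with 25328 bp (chr10:93125183-93150510), the widest of the 7 such regions. No sham region lay within 33505 bp of its TSS. Ets1, which endothelial cells and lymphocytes use, was marked in neither group at its most upstream start. At its other listed start, 59796 bp downstream, a 74305 bp PHx region had no sham region at the TSS, although a 19156 bp sham region lay inside its span. A further PHx region of 18339 bp in the 5′ UTR of Ets1 overlapped no sham region.

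Forkhead genes were 16, of which 14 were marked in both groups, with a median ratio of 1.44. Foxo1, which drives gluconeogenesis when insulin is low, had 65394 bp (chr3:52169915-52235308) in PHx liver and 11738 bp in sham liver (5.57). The gain of 51388 bp lay downstream, across the body of the gene, where the PHx region joined 2 further sham regions of 16822 bp and 13766 bp, and the ratio to the sum was 1.55. Foxo3, its relative in starvation and stress responses, went the other way, with 40714 bp in PHx liver and 65747 bp in sham liver (chr10:42090806-42156552), a ratio of 0.619. That sham region was the widest of any member in sham liver, and it overlapped 2 PHx regions, as the map of loci shows. Within 25 kb of the Foxo3 TSS the covered length was 30307 bp in PHx liver and 28862 bp in sham liver. Both regions ran past that window downstream, so the longer reach of the sham region fell outside it.

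**Figure D4:**
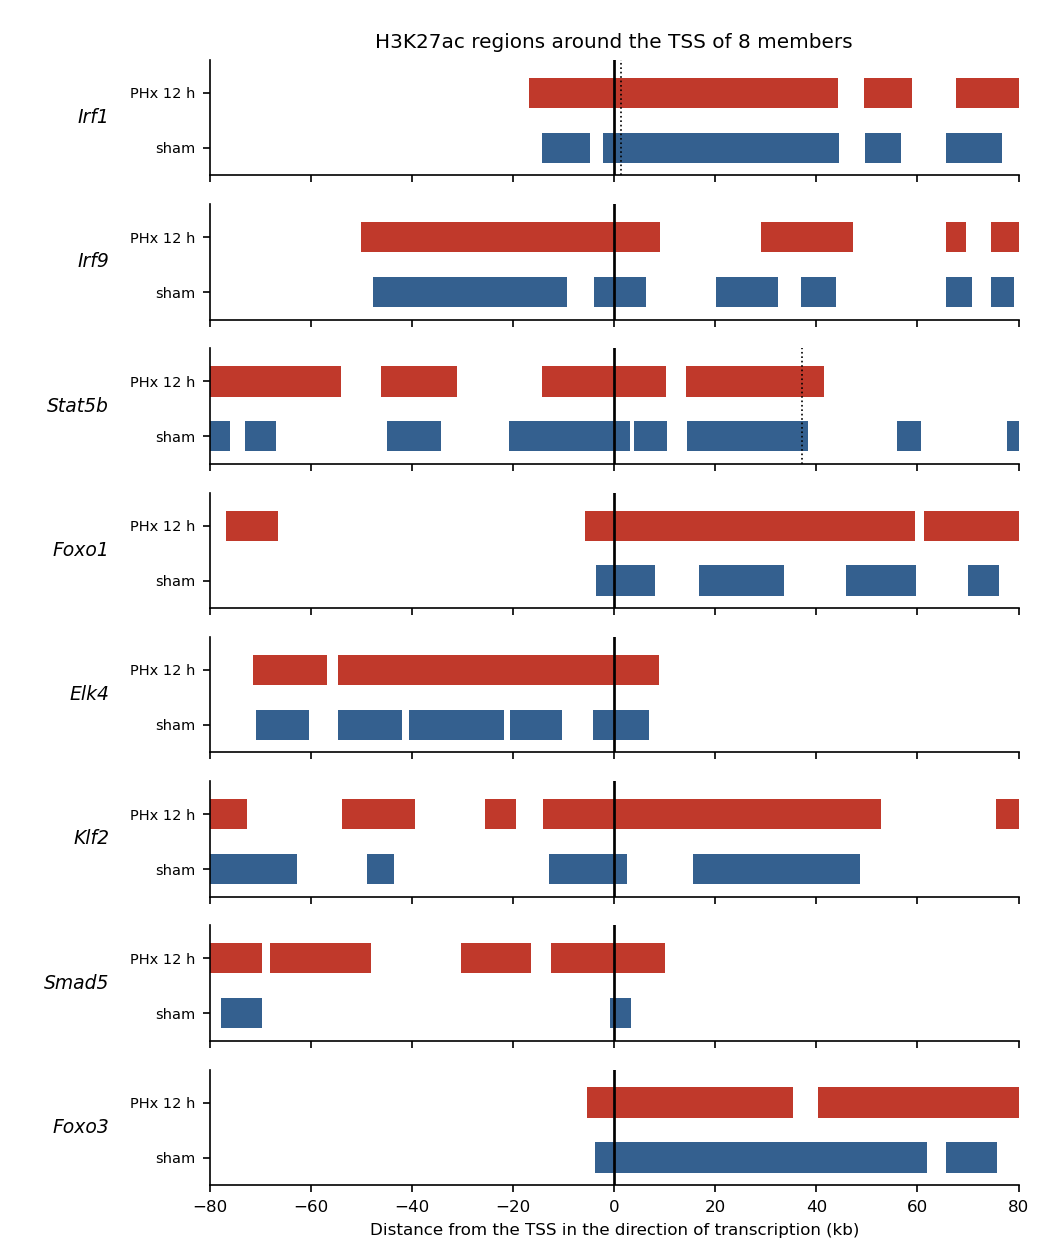
Regions of PHx 12 h (upper bar) and sham (lower bar) around the TSS of 8 members, by distance from the TSS in the direction of transcription (kb); the solid line is the most upstream listed TSS and dotted lines are other listed starts. At Irf1, Irf9, Elk4, Foxo1 and Klf2 the PHx region spans several sham regions, at Smad5 it spans 1 short one, and at Foxo3 the sham region is the wider.

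The hepatocyte factors Foxa1 and Foxa3 had 23112 bp and 41669 bp in PHx liver, against 16448 bp and 28219 bp in sham liver (1.41 and 1.48). Foxq1, an epithelial factor, had 18681 bp in PHx liver and 5285 bp in sham liver (3.53, and 1.70 against the sum). Foxn3, a repressor known from liver glucose control, had 17177 bp in PHx liver and 7497 bp in sham liver (2.29). At a Foxn3 start 169087 bp downstream the order was reversed, 13835 bp in PHx liver and 18952 bp in sham liver. Starts of 1 gene thus differed in direction.

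Foxk1, which represses autophagy genes, was wide in both groups, 54058 bp in PHx liver and 51903 bp in sham liver (1.04). Its relative Foxk2 had 20085 bp in PHx liver and 10477 bp in sham liver (1.92), and Foxn2 had 13029 bp in PHx liver and 6616 bp in sham liver (1.97). Foxp4, a repressor active in the developing lung and gut, had the lowest ratio of all members, 12839 bp in PHx liver and 20900 bp in sham liver (0.614). Here the sham region overlapped 2 PHx regions, and within 25 kb of the TSS 22585 bp were covered in PHx liver and 27242 bp in sham liver (0.829). Foxj2 and Foxj3 had 10809 bp and 8021 bp in PHx liver and 11592 bp and 7891 bp in sham liver, and Foxh1, a partner of activated SMAD proteins, had 10722 bp in PHx liver and 7035 bp in sham liver (1.52).

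Foxp1, a repressor with many promoters, had 12253 bp in PHx liver and 9617 bp in sham liver at its most upstream start (1.27). Of its 11 listed starts 4 were marked in both groups, 1 in PHx liver only, 2 in sham liver only and 4 in neither. Foxp2, best known from the brain, was marked in PHx liver only, with 6956 bp (chr6:15183752-15190707) and no sham region within 532924 bp. Foxl3, a germ cell factor in the fish medaka, was marked in PHx liver only with 11351 bp (chr5:138801052-138812402), but a sham region began 2027 bp from its TSS and overlapped the PHx region.

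Of the 9 SOX names, which include the 2 non-coding ones, 5 were marked in both groups, 2 in PHx liver only, 1 in sham liver only and 1 in neither, shares near those of all genes. Sox9, the factor of bile duct cells, had 8707 bp in PHx liver and 6121 bp in sham liver (1.42). The endothelial factors Sox18 and Sox7 had 32965 bp and 11531 bp in PHx liver, and 20312 bp and 10931 bp in sham liver (1.62 and 1.05). At Sox18 the PHx region joined 2 sham regions (1.21 against the sum) and also spanned the starts of Lkaaear1 and Rgs19. Sox5, a factor of cartilage and neurons, had 18389 bp in PHx liver and 6214 bp in sham liver (2.96), and Sox13 had 20986 bp in PHx liver and 18346 bp in sham liver (1.14). Sox6, a partner of Sox5, was marked in PHx liver only, with 13539 bp (chr7:115628346-115641884). No sham region lay within 232541 bp of that start, and 3 of the 4 listed Sox6 starts were marked in PHx liver only. At the most downstream of these 3 the PHx region of 14536 bp covered a sham region of 10660 bp that lay 3103 bp from the start. Sox12, a developmental factor of the SOXC group, was marked in sham liver only, with 8530 bp (chr2:152234474-152243003), and the nearest PHx region lay 27407 bp away. The non-coding Sox5os4 was marked in PHx liver only with 10579 bp (chr6:144695988-144706566), and a sham region named for it lay 2560 bp from its TSS. Sox5os3 and Sox5os4 start within Sox5 on the opposite strand, and since regions carry no strand, the mark there cannot be assigned to either gene.

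GATA factors build blood, endothelium and mesenchyme. Gata2, of blood stem cells and endothelium, was marked in PHx liver only, with 12050 bp (chr6:88172801-88184850), and no sham region lay within 111652 bp of its TSS. Gata4, which sinusoidal endothelium needs, was marked in PHx liver only at its most upstream start, with 15670 bp (chr14:63498624-63514293). Its other listed start, 25862 bp downstream, was marked in both groups, with 33995 bp in PHx liver and 20150 bp in sham liver. Gata4 was therefore marked in both groups as a gene, and the difference lay at the upstream start.

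KLF factors are zinc finger proteins that bind GC-rich promoters. Klf2, which endothelium switches on under flow, had 66839 bp (chr8:73058848-73125686) in PHx liver and 15473 bp in sham liver (4.32), and 50266 bp of the gain lay downstream, across a 33088 bp sham region (1.38 against the sum). Klf15, a regulator of amino acid use and gluconeogenesis in fasting, had 21536 bp in PHx liver and 19535 bp in sham liver (1.10). Of the T-box genes, Tbx3, which keeps hepatoblasts from the bile duct fate, had 12375 bp in PHx liver and 10194 bp in sham liver (1.21). Tbx6, a mesoderm factor, had 46964 bp in PHx liver and 10363 bp in sham liver (4.53). That PHx region spanned 5 sham regions and the starts of Aldoa, Gdpd3, Mapk3 and Ppp4c, so its width cannot be assigned to Tbx6 alone.

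**Figure D5:**
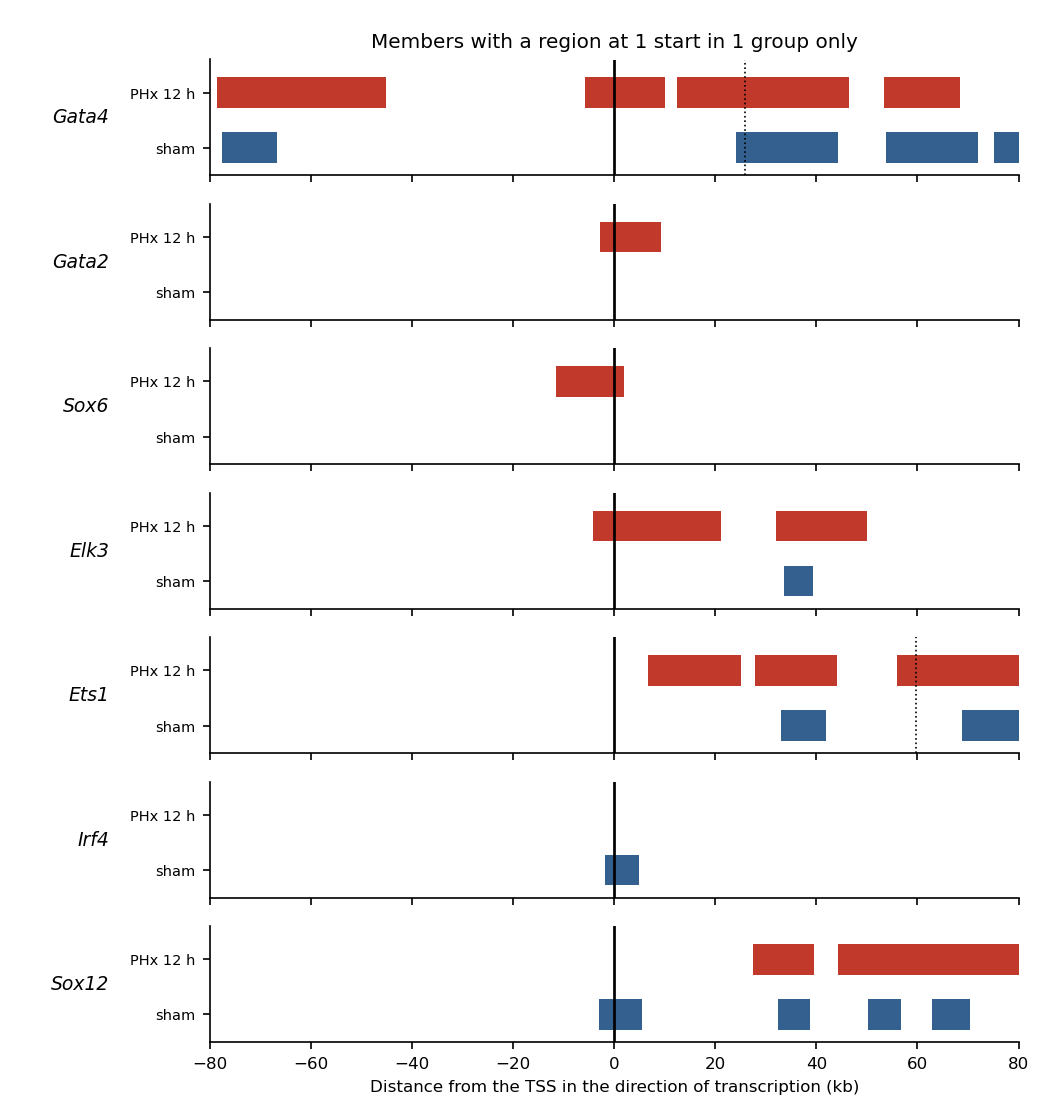
Regions of PHx 12 h (upper bar) and sham (lower bar) around the TSS of 7 members with a start marked in 1 group only, by distance from the TSS in the direction of transcription (kb); the solid line is the most upstream listed TSS and dotted lines are other listed starts. Gata2 and Sox6 have 1 PHx region and no sham region in the window, Irf4 has 1 sham region and no PHx region, and Gata4 and Ets1 have regions of both groups elsewhere in the gene.

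Promoter sequences are shown for 5 of the members marked in 1 group only and for Irf1, to let the starts be compared by base composition and motif. They come from RefSeq on build GRCm38.p6, which is not the build of the regions (GRCm39), run 5′ to 3′ on the gene's strand over 250 bases before and 50 bases after the start, and capitals mark a motif found by search. Entries for Gata2, Sox6 and Sox12 were matched to the listed start by transcript length, and the others by symbol, so that a window matched by symbol need not be the start described above. In the order below, 3 starts marked in PHx liver only are followed by 2 marked in sham liver only and 1 marked in both.
Gata2 (chr6:88198414-88198713, plus strand): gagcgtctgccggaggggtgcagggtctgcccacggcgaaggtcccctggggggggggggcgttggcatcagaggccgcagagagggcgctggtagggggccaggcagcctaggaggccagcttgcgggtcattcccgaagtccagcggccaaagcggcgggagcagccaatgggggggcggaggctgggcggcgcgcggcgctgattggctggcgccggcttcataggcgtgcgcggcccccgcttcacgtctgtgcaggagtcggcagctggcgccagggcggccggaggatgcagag
Sox6 (chr7:116030998-116031297, minus strand): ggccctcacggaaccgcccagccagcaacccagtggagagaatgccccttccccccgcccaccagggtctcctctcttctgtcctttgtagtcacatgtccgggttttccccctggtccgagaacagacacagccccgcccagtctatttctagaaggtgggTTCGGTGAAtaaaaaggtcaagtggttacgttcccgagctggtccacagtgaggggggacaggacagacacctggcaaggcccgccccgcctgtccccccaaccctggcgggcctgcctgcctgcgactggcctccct
Elk3 (chr10:93311110-93311409, minus strand): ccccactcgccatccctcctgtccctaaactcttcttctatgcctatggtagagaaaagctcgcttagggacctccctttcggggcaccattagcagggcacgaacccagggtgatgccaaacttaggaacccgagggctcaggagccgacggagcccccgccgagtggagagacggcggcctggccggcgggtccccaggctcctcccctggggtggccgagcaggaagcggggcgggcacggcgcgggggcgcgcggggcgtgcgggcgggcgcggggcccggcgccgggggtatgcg
Irf4 (chr13:30748983-30749282, plus strand): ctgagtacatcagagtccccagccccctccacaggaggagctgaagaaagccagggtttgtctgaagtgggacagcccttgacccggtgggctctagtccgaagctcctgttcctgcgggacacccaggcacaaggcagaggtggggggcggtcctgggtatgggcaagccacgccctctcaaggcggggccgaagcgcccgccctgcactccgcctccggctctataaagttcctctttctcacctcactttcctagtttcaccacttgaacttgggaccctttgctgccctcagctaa
Sox12 (chr2:152397997-152398296, minus strand): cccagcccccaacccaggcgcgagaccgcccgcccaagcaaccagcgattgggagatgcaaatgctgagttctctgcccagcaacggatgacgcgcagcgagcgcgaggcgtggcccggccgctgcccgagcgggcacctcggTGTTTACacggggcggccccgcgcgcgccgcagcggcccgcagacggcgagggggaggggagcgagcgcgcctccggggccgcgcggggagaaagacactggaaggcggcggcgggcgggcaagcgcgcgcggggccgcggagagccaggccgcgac
Irf1 (chr11:53769764-53770063, plus strand): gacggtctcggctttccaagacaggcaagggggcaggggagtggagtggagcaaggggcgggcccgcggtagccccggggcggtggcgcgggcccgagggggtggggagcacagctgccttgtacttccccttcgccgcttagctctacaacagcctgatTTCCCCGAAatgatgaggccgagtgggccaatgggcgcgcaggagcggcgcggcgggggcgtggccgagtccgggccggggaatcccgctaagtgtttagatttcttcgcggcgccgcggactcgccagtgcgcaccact

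CpG counts in these windows did not divide the starts by group. Gata2 had 29 CpGs, Elk3 31 and Sox6 13 among the starts marked in PHx liver only, while Sox12 had 47 and Irf4 11 among those marked in sham liver only. The median was 29 over all 42 members with a promoter entry (range 3 to 59). It was 22 over the 21 of them matched by transcript length (range 5 to 50). The median was 22 over 3801 protein-coding genes marked in both groups and 7 over all 27025 genes, each taken at its most upstream entry. The members matched by length were not chosen by that rule, so the sets are not fully alike.

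Letters recognised by the same families were searched on both strands in the windows of 42 members, 21 of them matched by symbol alone, and motifs could share bases. Shares of all are over the 27025 genes, each at its most upstream entry. These had a median of 7 CpGs against 29 in the 42 member windows. The shares are thus not matched for base composition and cannot show enrichment or depletion. The STAT site TTCNNNGAA was in 7 windows (Etv6, Foxn3, Irf1, Irf2, Irf8, Sox13 and Sox6), or 16.7%, against 8.42% of all. In Irf1 it reads TTCCCCGAA and lies 90 to 82 bp upstream of the start, and in Sox6 it reads TTCGGTGAA and lies 88 to 80 bp upstream. The forkhead letters TGTTTAC were in 2 windows (4.76%, against 3.52% of all), Foxa1 and Sox12, where they lie 107 to 101 bp upstream. The interferon element GAAANNGAA was in 3 (7.14%, against 8.58%), the GATA letters AGATAA in 2 (4.76%, against 11.4%) and the KLF letters CCACACCC in 3 (7.14%, against 3.60%). The ETS letters CCGGAAGT (3.99% of all), the SOX letters ACAATGG (3.67%), the T-box letters AGGTGTGA (1.28%) and the SMAD palindrome GTCTAGAC (0.211%) were each in 1 window, those of Elk4, Sox5, Stat5a and Smad6. A match is a description of letters and not a binding site.

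Regions farther than 3 kb from the TSS of the gene they name were more numerous in sham liver: members had 22 in PHx liver and 45 in sham liver. Of the 22 PHx regions 7 overlapped no sham region (31.8%), against 37.6% of all 2505 distal PHx regions. Of the 45 sham regions 10 overlapped no PHx region (22.2%), against 18.6% of all 3738. Another 9 of the 45 were overlapped by the PHx region at the TSS of the same gene, at 8 genes including Irf1, Irf2, Klf2, Elk4 and Foxo1. That share was not counted over all distal sham regions, so it is not shown to be particular to the members. By the gene a region names, IRF and SMAD genes had no distal PHx region, and 2 distal sham regions each. All of these sham regions overlapped a PHx region. As 7 of the 8 IRF genes were named by sham regions only, they could have no distal PHx region in this count.

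The distal PHx regions without sham overlap lay at Ets1 (described above), Gata6, Foxq1, Foxn3, Etv4, Sox5os3 and Sox13. That of Gata6, a factor of mesenchyme and stellate cells, was 17441 bp wide and lay between genes, 152649 bp downstream of the nearer of the 2 listed Gata6 starts, while the most upstream start was marked in both groups with 15664 bp in PHx liver and 10611 bp in sham liver (1.48). Etv4, a target of FGF and ERK signalling marked in neither group at its start, had a PHx region of 11303 bp over its 3′ UTR. Those of Foxq1 and Foxn3 were 11662 bp and 11491 bp wide, and those of Sox5os3 and Sox13 were 11065 bp and 8804 bp wide.

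The distal sham regions without PHx overlap were narrower, from 3718 bp at Foxn3 to 9810 bp in an intron of Sox6. They also lay at Foxk2 (6534 bp), Sox5 (6323 bp), Foxq1 (6263 bp), Foxp4 (5025 bp), Stat5b (4848 bp) and Foxp1 (4817 bp), and Klf12, a repressor, had 2 (4529 bp and 4231 bp). Foxq1, Foxn3 and Sox6 thus had regions found in 1 group only on both sides of the comparison: Sox6 at its most upstream start in PHx liver and in an intron in sham liver, and Foxq1 in neighbouring stretches upstream.

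The factors were also grouped by the cell type they are best known from, and only those with a listed TSS could be counted. Of 12 hepatocyte factors 7 had one (Foxa1, Foxa3, Foxo1, Foxo3, Klf15, Stat5b and Tbx3). All 7 were marked in both groups, where 59.1% of all genes were, with a median ratio of 1.21. Of 15 endothelial factors 9 had a listed TSS. Elk3, Gata2 and Gata4 were marked in PHx liver only, 5 in both (median ratio 1.62, below the 1.74 of all genes) and Ets1 in neither. The share of all genes marked in PHx liver only was 17.8%, and Gata4 counts here by its upstream start, its other start being marked in both groups. Of 11 factors of blood and immune cells 4 had a listed TSS, and Irf5, Irf8 and Etv6 were marked in both and Irf4 in sham liver only. Of the 7 listed marker genes of endothelium, 5 had a region at the TSS in PHx liver only (Pecam1, Cdh5, Lyve1, Erg and Clec4g), none had one there in sham liver, and Stab2 and Vwf had one in neither. Sham regions did lie near some of them, as within 25 kb of the Lyve1 TSS, where 42771 bp were covered in PHx liver and 27683 bp in sham liver. The part of cell composition in the endothelial factors' values was not tested. Of the 6 macrophage markers 3 had a listed TSS, and Csf1r was marked in PHx liver only and Cd68 and C1qa in both. No lymphocyte or neutrophil marker was named by a region.

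Genes that act before or after these factors were counted in the same way, and are read against all genes: 17.8% marked in PHx liver only, 8.19% in sham liver only and 59.1% in both, with a median ratio of 1.74 at the TSS region and 1.39 against the summed sham regions. In the JAK-STAT list 18 of 21 genes had a listed TSS, and 14 of them had a region in both groups (median ratio 1.83), Tyk2 and Osmr in PHx liver only and Pias3 in sham liver only. Socs3, the feedback inhibitor of STAT3, had 95855 bp in PHx liver and 15412 bp in sham liver, Jak1 had 112577 bp in PHx liver and 21045 bp in sham liver, and Lifr had 48954 bp in PHx liver and 5011 bp in sham liver. Those were the highest ratios of the list, which ran down to 1.12 at Il6st. Covered length within 25 kb of the TSS differed less. It was 50001 bp in PHx liver and 32523 bp in sham liver at Socs3, where PHx regions filled the window. At Jak1 it was 29228 bp in PHx liver and 23078 bp in sham liver, and at Lifr 29942 bp and 23731 bp. The list's median of 1.83 was close to that of all genes, and against the summed sham regions it was 1.47. In the TGF-beta and BMP list 16 of 21 had a listed TSS, and 12 of them had a region in both (median ratio 2.54, and 1.38 against the summed sham regions, as 8 of the 12 PHx regions joined several), the receptors Acvr2a and Acvrl1 and the decoy receptor Bambi in PHx liver only, and the receptor Acvr2b in sham liver only.

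In the list of IRF activators and targets 8 of 18 had a listed TSS, and Mavs and Tbk1 were marked in both, too few for a share to be read against all genes. The sensor Ifih1, the adaptor Sting1 and the target Ifit1 were marked in PHx liver only, the sensor Tlr3 and the adaptor Traf3 in sham liver only, and Mx1 in neither. In the RAS to ERK list, with 10 of 17 genes listed, 9 were marked in both (median ratio 1.31 in either form). In the AKT to FOXO list all 11 listed of 14 were marked in both (median ratio 2.01, and 1.52 against the summed sham regions). Irs2, an insulin receptor substrate, had the highest ratio of that list, with 96764 bp in PHx liver and 13831 bp in sham liver. Within 25 kb of its TSS 31567 bp were covered in PHx liver and 13831 bp in sham liver.

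A wide region names 1 gene only, and this hid several members. By the authors' gene names alone 42 members were named in both groups, 5 in PHx liver only and 13 in sham liver only. Of those 13, 10 had their TSS inside a PHx region that names another gene. Irf2, Irf5, Irf7, Irf8 and Irf9 were in this position, under names such as Dcaf11 for Irf9 and Cdhr5 for Irf7. It was not limited to members. Of all 10925 genes, 1349 had their TSS at a PHx region that names another gene and 382 at such a sham region. Among the 60 members these counts were 12 and 2.

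Each listed region held peaks of both libraries. The PHx regions at member starts were 52, of which 39 (75.0%) held 1 peak of each library, against 81.4% over all genes. In 10 of the others library 2 gave several peaks to 1 of library 1, as at Elk4 (3 peaks) and Foxo1 (4 peaks), so that the same stretch was 1 peak in library 1 and several in library 2. In sham liver 38 of 48 held 1 peak of each (79.2%, against 84.3%). Each library's peaks are numbered along the genome, and many numbers were used by no region. Sham regions held 12759 peaks of library 1, numbered up to 17405, and 12479 of library 2, numbered up to 17476. PHx regions held 10596 peaks of library 1, numbered up to 12096, and 11782 of library 2, numbered up to 14957. For 9 of the 10 members marked in 1 group only, the stretch without a region in the other group held such an unused number, and Sox5os4 was the exception. The same share over all genes was not counted, so this is not shown to be particular to the members. A peak called in 1 library of that group may thus lie at those starts, and whether it does was not tested.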

How the data were processed

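H3K27ac CUT&Tag regions of liver were analysed in 2 groups, PHx 12 h and sham, with 2 libraries each. Tools listed without version or role in the submitters' processing notes are Bowtie2 and SEACR, ChIPseeker, and also DiffBind, and the builds are GRCm39 and mm39. The authors deposited 1 table per group; per the file headers its values are other quantities than signal, namely start, end, width and distance to the TSS in bp, with the assigned gene and the peaks of each library joined into the region. How peaks were called and merged is not given in the sources used here. No column belonged to other samples (0 columns).

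The TSS of a gene was the most upstream start listed in either table. A gene was marked when a region overlapped its TSS within 1 kb. Width ratios were PHx over sham, overlap needed at least 1 bp, distal meant over 3 kb from the assigned TSS, and covered length was taken over 25 kb to each side. RefSeq (GRCm38.p6) gave biotypes and promoters, and 42 of 60 members had a promoter entry. Python 3.11.15, pandas 2.3.3, numpy 2.4.6 and matplotlib 3.10.9 were used, and interval steps were checked on simulated regions. Some genes included in the counts are not reported singly here, and 1 further KLF gene is not reported here.

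Members and gene lists were chosen with earlier results of these data known. The genes given with full values were the members marked in 1 group, the 3 highest ratios and the 1 lowest in each family, the 5 widest regions per group and up to 8 distal regions per group without overlap; the other members were named in addition. No test was made, as each group is 1 merged list.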

Additional observations from a re-analysis of the deposited data

How the results depend on the processing

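No paired analysis was possible because each group is 1 merged list with no value per library, and for the same reason leaving out each replicate was not run. With no spread between replicates, a value was taken as moved when it differed by more than 1.5 times. The median ratio of 1.56 stayed between 1.25 and 1.62 under the alternatives, and was 1.41 over the 25 members whose regions overlapped 1 to 1. By the authors' gene assignment 13 members were in sham only and 0 in neither, and with PHx regions shrunk by the ratio of median widths 16 were in sham only. Without stretches that hold unused peak numbers 1 member was left in PHx only and 0 in sham only, since by construction 9 of the 10 members marked in 1 group lie in such stretches. When overlap had to be reciprocal at 50%, 15 of 22 distal PHx regions of members had none (68.2%, against 61.4% of all). In sham liver 38 of 45 had none by that rule (84.4%, against 71.1% of all). Over 10 kb from the TSS, 4 of 15 distal PHx regions overlapped no sham region (26.7%, against 38.0% of all). Among distal sham regions at least 5 kb wide, 5 of 38 overlapped no PHx region (13.2%, against 17.0% of all). With the widest region over any listed start, Foxn3 had a ratio of 0.906. That value sets 17177 bp in PHx liver at the most upstream start against 18952 bp in sham liver at a start 169087 bp downstream. It is therefore not a reversal at 1 start. By covered length within 25 kb the direction was reversed for Foxo3 (1.05), Smad6 (1.02), Stat5a (0.895) and Stat5b (0.853), and the cause was not tested. At Foxo3 both regions ran past that window, to 35407 bp downstream of the TSS in PHx liver and 61885 bp in sham liver. The window therefore could not compare their downstream ends. The other 40 summary values were within 1.5 times, and of the single-member values 141 were too, while 16 moved. Depth is unknown, so a start without a region is one where no region was listed, not one shown to lack the mark.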
